A study of Homo sapiens with 8 samples.

Results

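The 7 genes described here code for the parts of the 5S particle pathway that holds MDM2 in check: the ribosomal proteins RPL5, RPL11 and RPL23, the assembly factors RPF2 and RRS1, and the ubiquitin ligase MDM2 with its partner MDM4. They were taken by gene name, 7 rows of the 58870 in the deposited table, and all 7 passed the filter on low values that left 16542 genes for testing. The cells were BJ skin fibroblasts in a derivative labelled BJ-HRAS, of which each library came from a single clone. Clones 15 and 54 were WT, and clones 66 and 69 carried a knockout (KO) of SNORA13, an H/ACA small nucleolar RNA (snoRNA). Each clone was sampled without (Z)-4-hydroxytamoxifen (4-OHT) and with it, at 100 nM for 7 days, giving 8 total RNA libraries in 4 groups of 2 clones. In cells of this kind 4-OHT switches on a receptor-HRAS fusion, and RAS kept active for days is known to drive such fibroblasts into senescence. The sources used here do not say how the KO was made or which promoter drives the HRAS construct.

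A new large ribosomal subunit takes up its 5S rRNA as a ready-made particle with RPL5 and RPL11, which RPF2 and RRS1 help to place in the pre-ribosome. When assembly stalls, the particle instead binds MDM2, the ligase that marks p53 for breakdown, so that p53 and its target genes rise. RPL23 also binds MDM2. MDM4 resembles MDM2, pairs with it and holds back p53 activity. MDM2 is itself a p53 target gene, which closes a feedback loop. All of these events but the last take place on proteins, and the libraries measured RNA only.

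The stretch shown here lies upstream of the inner start site of MDM2, where the p53-responsive promoter of the gene is known to be. It is from RefSeq (GRCh38.p14), chr12:68808908-68808995 on the plus strand, and no exon of the 34 annotated MDM2 transcripts (GENCODE 29) covers it. Capitals mark 2 matches to the p53 response element consensus, 2 half-sites of 10 bases with no spacer and at most 3 mismatches in all.
MDM2 promoter: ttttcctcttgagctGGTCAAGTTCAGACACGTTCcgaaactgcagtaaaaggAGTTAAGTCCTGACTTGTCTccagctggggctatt
The first match, with 2 mismatches, ends 75 bases before the start and the other, with 3, ends 37 bases before it. Of 35116 promoter windows of 300 bases in RefSeq, 5.20% held at least 1 such match and 0.313% held at least 2. Counted by gene, 6.39% of 27305 genes held a match in any window, and of 20 p53 target genes with a window 7 (35.0%) did. The windows of RPL11, MDM4 and the outer MDM2 start held none, and RPL5, RPL23, RPF2 and RRS1 were not scanned. A match is a description of letters. The consensus is its own reverse complement, so 1 scan covers both strands.

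Library totals were 22.1 to 24.9 M reads, and within a group the log2 values of the 2 clones correlated across genes (r = 0.9836 to 0.992). SNORA13 had 4 to 7 reads in each WT library and 0 in each KO library. All 10 fibroblast markers passed the filter, and their summed level was 4032 to 4540 RPKM (reads per kilobase, relative to the total of the library) in the 4 libraries without 4-OHT and 1968 to 2289 with it. The summed epithelial, endothelial, immune and melanocyte lists reached at most 20.2, 0.41, 16.6 and 18.1 RPKM. These sums cover 3, 5, 4 and 5 of the 5 markers listed for each. None of the markers covered was at 0 in every library, but rows at 0 throughout without a listed transcript length were left out beforehand. The RNA of the signal recognition particle took 9.18% to 10.1% of reads without 4-OHT, 9.72% in WT clone 15 with 4-OHT, and 14.8% to 16.1% in the other libraries with it. The part of these shifts in the 4-OHT responses was not tested. In bulk libraries, fewer cells of a kind and less RNA per cell cannot be told apart. The error behind every p-value is the spread of 2 clones a group. Where a library is left out, its group has 1 clone, which is assumed to vary like the other groups. Genotype cannot be told apart from other differences between the WT and the KO clones. That bare clone numbers mark libraries with 4-OHT, and numbers with a minus sign those without, is a reading of the column names that no label spells out.

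The 7 genes fell into distinct behaviours. RNA for the 5S assembly factors RPF2 and RRS1 rose with 4-OHT in both genotypes, by 1.82-fold to 3.68-fold, and RRS1 rose more in KO than in WT. MDM2 RNA rose 2.58-fold in WT and 1.49-fold in KO, and KO clones with 4-OHT held 1.71-fold less of it than WT clones. The difference of the 2 MDM2 responses missed the threshold (limma adjusted p = 0.0627). The calls between the genotypes for RRS1 and MDM2 did not hold with every library left out in turn. MDM4 fell in both genotypes. RPL5, RPL11 and RPL23, whose RNA was at a far higher level, passed the main test in no contrast, though some alternative settings called them.

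**Figure D1:**
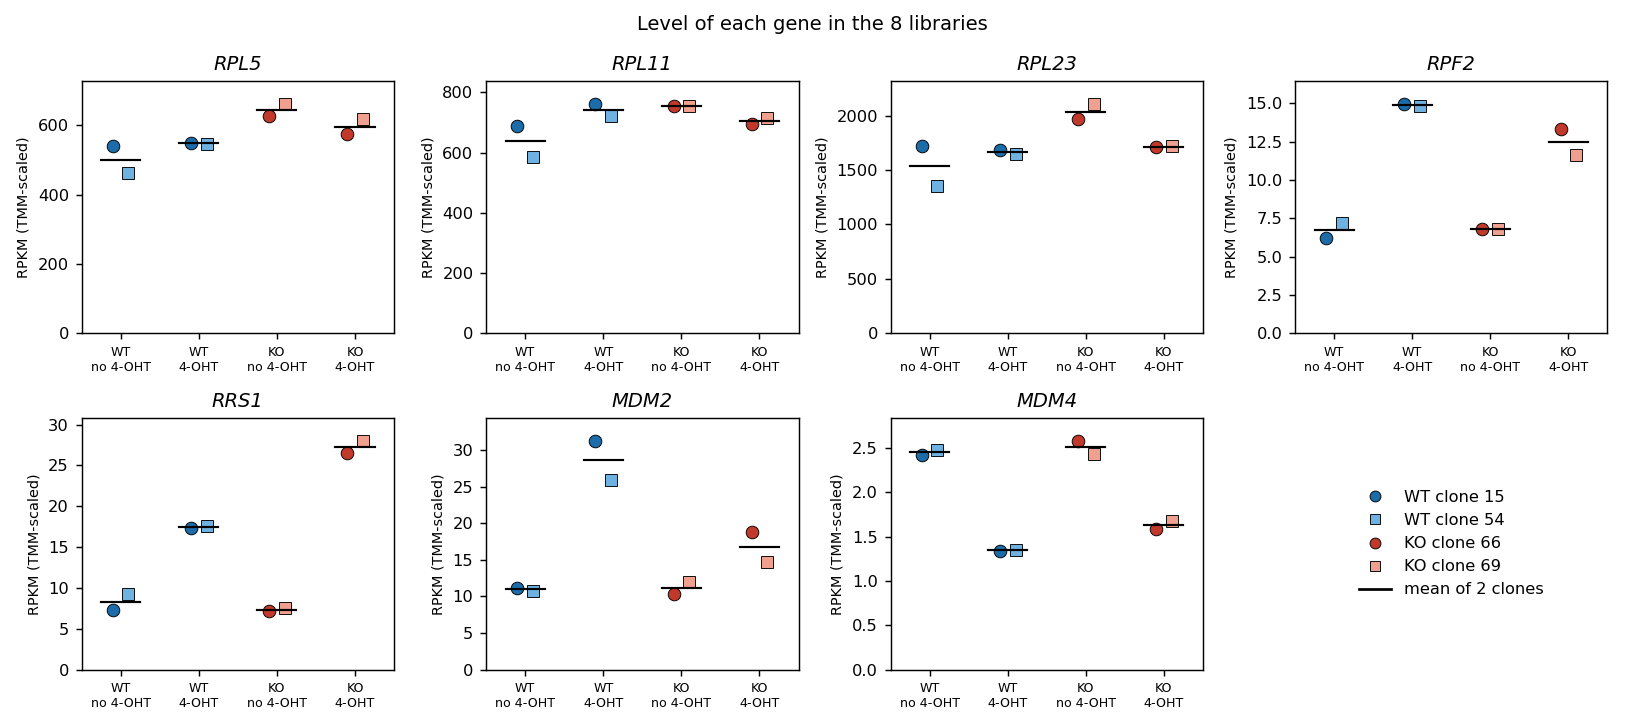
Level of the 7 genes in each library, in RPKM scaled by the trimmed mean of M values (TMM) on a linear axis from 0, with 4 groups of 2 clones on the x axis and a bar at each mean. RRS1 is highest in the 2 KO libraries with 4-OHT (26.5 and 28.0), MDM2 in the 2 WT libraries with 4-OHT (31.3 and 25.9).

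RPL5 (ENSG00000122406.13, chromosome 1, 92831983 to 92841924, plus strand, GRCh38) binds the 5S rRNA directly. It measured 541 and 463 RPKM in WT clones 15 and 54 without 4-OHT and 551 and 546 with it. In KO clones 66 and 69 it measured 628 and 662 RPKM without 4-OHT and 576 and 618 with it. Both KO clones lay above both WT clones in either condition. Without 4-OHT the KO mean was 1.29-fold higher (645 ± 23.9 against 502 ± 55.3 RPKM, SD, n = 2), a log2 difference of 0.37 ± 0.09 (SE) that missed the threshold of 0.05 (limma adjusted p = 0.0565). With 4-OHT the log2 difference was 0.12 ± 0.09 (limma adjusted p = 0.405).

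RPL11 (ENSG00000142676.14, chromosome 1, 23691742 to 23696835, plus strand) completes the 5S particle and contacts MDM2. It measured 690 and 586 RPKM in WT clones 15 and 54 without 4-OHT and 762 and 722 with it. In KO clones 66 and 69 it measured 754 and 755 RPKM without 4-OHT and 695 and 716 with it. The order of the genotypes thus turned: both KO clones lay above both WT clones without 4-OHT and below them with it. Neither difference passed the test, with log2 values of 0.25 ± 0.09 and -0.07 ± 0.09 (limma adjusted p = 0.136 and 0.638), nor did the difference of the 4-OHT responses, KO response minus WT response (log2 -0.32 ± 0.13, limma adjusted p = 0.168).

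RPL23 (ENSG00000125691.13, chromosome 17, 38847865 to 38853843, minus strand) is a large-subunit protein that binds MDM2 outside the 5S particle. It was the most abundant of the 7, at 1719 and 1354 RPKM in WT clones 15 and 54 without 4-OHT and 1682 and 1646 with it. KO clones 66 and 69 held 1968 and 2110 RPKM without 4-OHT and 1711 and 1722 with it. The 2 KO libraries without 4-OHT were the highest of all 8. The KO mean there was 1.34-fold the WT mean, a log2 difference of 0.42 ± 0.11 that missed the threshold (limma adjusted p = 0.0695), and with 4-OHT the difference was 0.04 ± 0.11 (limma adjusted p = 0.83).

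Without 4-OHT, then, 0 of the 7 genes were called between the genotypes, beside 6.57% of all genes tested (2.84% higher and 3.73% lower). At an unadjusted p under 0.05 the count was 3 higher (RPL5, RPL11 and RPL23), and limma-voom on the recovered reads called 2 (RPL5 and RPL23, adjusted p = 0.0202 and 0.0227). The groups also stood apart with KO above WT for these 3 genes, as they did for 27.8% of all genes tested (28.6% had KO below WT). The size of these differences depended on the WT clone. Without the untreated library of WT clone 15 the log2 differences of RPL5, RPL11 and RPL23 were 0.48, 0.37 and 0.59. Without that of WT clone 54, the lowest library for each of them, they were 0.255, 0.13 and 0.245. Either fit has a single WT library without 4-OHT, so only effect sizes are given here. Elsewhere adjusted p-values of such fits are given where a call ended, which leaves out those of calls gained. The WT response to 4-OHT was log2 0.13, 0.22 and 0.13 with all libraries (limma adjusted p = 0.264, 0.0735 and 0.389). Limma-voom called that of RPL11 (adjusted p = 0.0453). The WT response was log2 0.245, 0.34 and 0.298 without clone 15 untreated. It was 0.019, 0.105 and -0.047 without clone 54 untreated. The KO response was log2 -0.11, -0.10 and -0.25 (limma adjusted p = 0.32, 0.388 and 0.0962). A fit of only the 4 KO libraries called RPL23 lower (limma adjusted p = 0.00772).

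Most large-subunit genes had a shift of the same sign. Of 51 tested, these 3 included, 47 had a higher estimate in KO without 4-OHT (median log2 0.24, against -0.002 for all genes tested), 2 were called (RPL13A and RPL7, 1.28-fold and 1.25-fold) and 0 were called lower. Neither call remained without KO clone 66 or 69. At an unadjusted p under 0.05 there were 25, and limma-voom called 10. The count was 0 without the trend and robust moderation and 0 in a fit of only the 4 libraries compared. The median log2 was 0.31 without the untreated library of WT clone 15 and 0.14 without that of clone 54. Ranked from the highest log2 difference, RPL23 was number 3, RPL5 number 7 and RPL11 number 23 of the 51. With 4-OHT they stood at 38, 20 and 47. In the KO response to 4-OHT they stood low, at 49, 44 and 40, where 10 genes of the 51 were called higher and 2 lower, beside 27.9% and 27.8% of all genes. In the WT response they stood at 37, 33 and 23, where 18 were called higher and 0 lower, beside 24.7% and 24.2%. The median log2 of that response was 0.21, and 0.29 or 0.12 without the untreated library of WT clone 15 or 54. Leaving out WT clone 15 untreated raised the WT count to 30, leaving out clone 15 or 54 with 4-OHT lowered it to 10 or 8, and it was 7 in a fit of only the 4 libraries compared. The KO count of lower genes was 0 to 2 with a library left out and 4 in a fit of only 4 libraries.

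**Figure D2:**
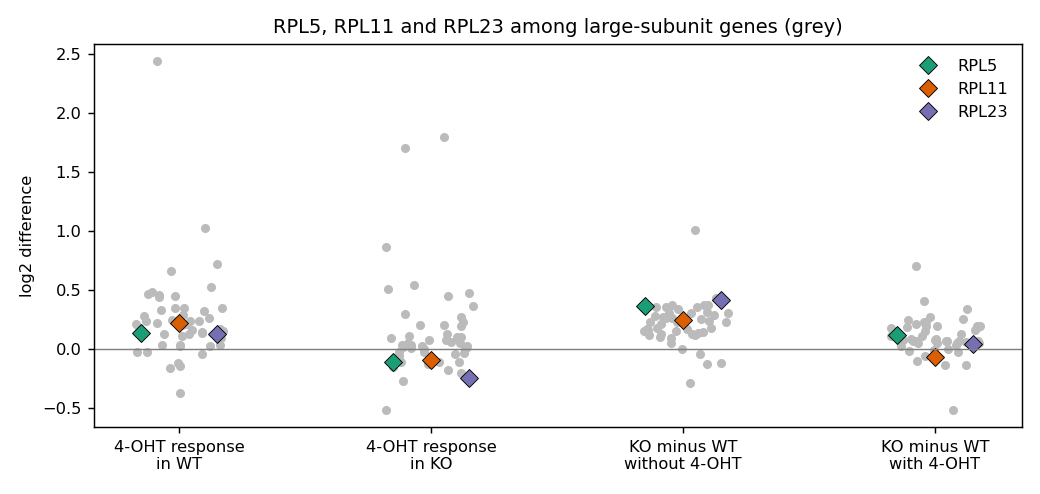
Log2 difference (y axis) of the 51 tested large-subunit ribosomal protein genes in 4 contrasts (x axis), with RPL5, RPL11 and RPL23 as coloured diamonds and the other genes as grey points spread sideways at random. The cloud sits above 0 in KO minus WT without 4-OHT, where RPL23 (0.42) and RPL5 (0.37) are near its top, and RPL23 (-0.25) is near the bottom of the KO response.

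The balance among the 3 genes was also read within each library. RPL5, RPL11 and RPL23 together made up 8.69% to 9.61% of the summed RPKM of large-subunit genes in WT without 4-OHT and 9.86% to 10.1% in KO. With 4-OHT the shares were 8.71% to 9.18% in WT and 8.43% to 8.57% in KO. The ratio of RPL11 to RPL5, chosen for display after its values were seen, was 1.27 to 1.38 in the 4 WT libraries and 1.14 to 1.21 in the 4 KO libraries, so the genotypes did not overlap. The ratio of RPL23 to RPL5 did overlap, at 2.927 to 3.179 in WT and 2.787 to 3.185 in KO. How often such ratios separate 2 clones from 2 was not counted. Over the 8 libraries the genes most like RPL23 were RPL21, RPS25, RPS27 and AP003352.1 (Pearson r = 0.977, 0.972, 0.964 and 0.961 among 8093 genes with a mean of at least 5 RPKM). RPL5 ranked number 6 (r = 0.941) and RPL11 number 100 (r = 0.829). These values describe 8 libraries that share clones and treatment groups.

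RPF2 (ENSG00000197498.13, chromosome 6, 110982015 to 111028263, plus strand) brings the 5S particle into the pre-ribosome together with RRS1. It measured 6.23 and 7.20 RPKM in WT clones 15 and 54 without 4-OHT and 15.0 and 14.9 with it. KO clones 66 and 69 held 6.81 and 6.77 RPKM without 4-OHT and 13.3 and 11.7 with it. The 2 conditions were far apart in each genotype. RPF2 rose 2.21-fold in WT (log2 1.14 ± 0.10, limma adjusted p = 0.000122) and 1.82-fold in KO (log2 0.87 ± 0.10, limma adjusted p = 0.00031). Both KO clones with 4-OHT lay below both WT clones, but neither that difference (log2 -0.26 ± 0.10, limma adjusted p = 0.142) nor the difference of the responses (log2 -0.28 ± 0.15, limma adjusted p = 0.283) passed the test.

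RRS1 (ENSG00000179041.4, chromosome 8, 66429028 to 66430733, plus strand) forms a complex with RPF2. It measured 7.28 and 9.30 RPKM in WT clones 15 and 54 without 4-OHT and 17.3 and 17.5 with it. KO clones 66 and 69 held 7.19 and 7.50 RPKM without 4-OHT and 26.5 and 28.0 with it. The genotypes overlapped without 4-OHT and stood well apart with it. RRS1 rose 2.11-fold in WT (log2 1.07 ± 0.12, limma adjusted p = 0.000284) and 3.68-fold in KO (log2 1.88 ± 0.12, limma adjusted p = 1.85e-05). With 4-OHT it was 1.56-fold higher in KO than in WT (27.3 ± 1.07 against 17.4 ± 0.14 RPKM, SD, n = 2, limma adjusted p = 0.0148). The difference of the responses was log2 0.80 ± 0.16 and passed the test (limma adjusted p = 0.0307). Both calls were near the limit of what 2 clones a group can carry: leaving out any of the 4 libraries with 4-OHT ended the KO minus WT call (limma adjusted p = 0.0543 to 0.103), with log2 differences from 0.60 upward. The difference of the responses kept a log2 value of at least 0.63 whichever library was left out, but lost its call in 6 of the 8 cases. With no filter on low values neither was called (limma adjusted p = 0.0504 and 0.0964), nor was the difference of the responses without the trend and robust moderation (limma adjusted p = 0.0718).

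RPF2 and RRS1 therefore parted in KO. Per library, the ratio of RRS1 to RPF2 was 1.17 and 1.29 in WT clones 15 and 54 without 4-OHT and 1.16 and 1.18 with it. In KO clones 66 and 69 it was 1.06 and 1.11 without 4-OHT and 1.99 and 2.40 with it. The ratio, chosen after its values were seen and so without a test, left its narrow range only in the KO libraries with 4-OHT.

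**Figure D3:**
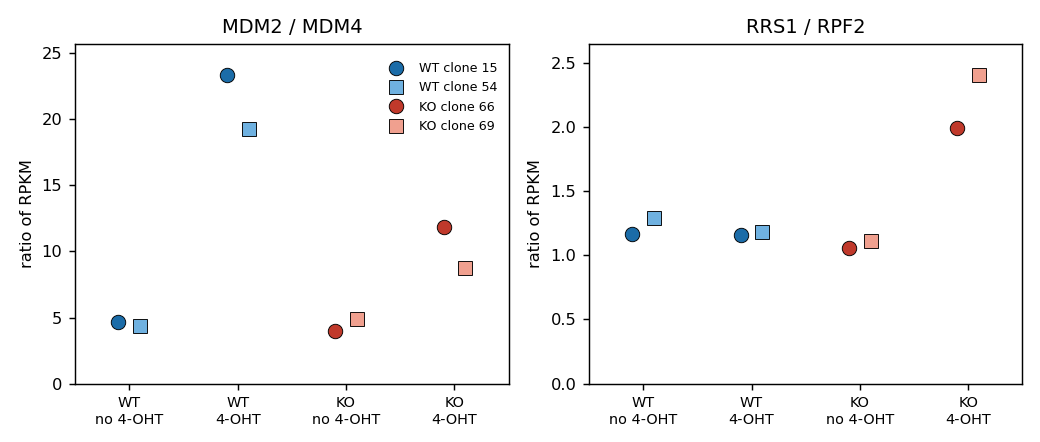
Ratio of RPKM within each library (y axis, from 0) for MDM2 to MDM4 and for RRS1 to RPF2, by group and clone. MDM2 to MDM4 is 19.2 and 23.4 in WT with 4-OHT against 8.75 and 11.8 in KO, and RRS1 to RPF2 reaches 1.99 and 2.40 only in KO with 4-OHT.

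The wider set of factors that assemble, import or dock the 5S particle rose with 4-OHT in both genotypes: 11 of 15 were called higher and 1 lower in WT (median log2 0.63), and 11 higher and 1 lower in KO (median 0.64). Over all genes tested, 24.7% were called higher and 24.2% lower in WT (median -0.02), and 27.9% and 27.8% in KO (median -0.02). In WT the smallest p-values belonged to TEX10, of the complex that processes the large-subunit precursor (2.47-fold), GNL2, a nucleolar GTPase of large-subunit assembly (2.17-fold), EIF6, which keeps the new subunit from joining too early (1.88-fold), and BCCIP, a chaperone of RPL23 (1.73-fold). In KO they belonged to EIF6 (2.11-fold), GNL2 (2.22-fold), TEX10 (2.27-fold) and NLE1 (2.24-fold), a remodelling cofactor of the pre-60S particle. NOP53, which sits near the 5S particle and is named after its values were seen, was the gene that fell in either genotype (log2 -0.65 ± 0.10 in WT and -0.85 ± 0.10 in KO, limma adjusted p = 0.00177 and 0.000352). Between the genotypes, 0 of the 15 were called without 4-OHT (1 higher and 1 lower at an unadjusted p under 0.05, and 0 by limma-voom), and 1 (SDAD1, log2 -0.33 ± 0.09, limma adjusted p = 0.0497) was called lower in KO with 4-OHT, a call that 10 of its alternatives ended. For the difference of the responses the count was 0 (1 higher at an unadjusted p under 0.05). Whether RRS1 differs from them was not tested.

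MDM2 (ENSG00000135679.24, chromosome 12, 68808176 to 68850686, plus strand) measured 11.2 and 10.8 RPKM in WT clones 15 and 54 without 4-OHT and 31.3 and 25.9 with it. KO clones 66 and 69 held 10.3 and 12.0 RPKM without 4-OHT and 18.8 and 14.7 with it. The genotypes overlapped without 4-OHT, whereas with it the lower WT clone stood above the higher KO clone. MDM2 rose 2.58-fold in WT (log2 1.37 ± 0.15, limma adjusted p = 0.000276) and 1.49-fold in KO (log2 0.57 ± 0.15, limma adjusted p = 0.0122). With 4-OHT it was 1.71-fold lower in KO than in WT (16.7 ± 2.94 against 28.6 ± 3.78 RPKM, SD, n = 2; log2 -0.78 ± 0.15, limma adjusted p = 0.0168). Without 4-OHT the log2 difference was 0.02 ± 0.15 (limma adjusted p = 0.952). The difference of the responses was log2 -0.79 ± 0.21 and missed the threshold (limma adjusted p = 0.0627), although limma-voom called it (adjusted p = 0.0268).

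These MDM2 results also rest on few clones. The KO response was not called without the untreated library (limma adjusted p = 0.0817) or the 4-OHT library (limma adjusted p = 0.075) of KO clone 66. The KO minus WT call with 4-OHT ended without WT clone 15 (log2 -0.64, limma adjusted p = 0.103) or KO clone 69 (log2 -0.60, limma adjusted p = 0.101), the highest WT and the lowest KO library. Leaving out either of the other 2 libraries kept it, and with no filter on low values it was lost (limma adjusted p = 0.059). WT clone 15 was also the library with 4-OHT whose share of signal recognition particle RNA stayed near that of the untreated libraries, and the part of that difference was not tested.

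MDM4 (ENSG00000198625.13, chromosome 1, 204516379 to 204558120, plus strand) moved the other way. It measured 2.42 and 2.48 RPKM in WT clones 15 and 54 without 4-OHT and 1.34 and 1.35 with it. KO clones 66 and 69 held 2.58 and 2.43 RPKM without 4-OHT and 1.59 and 1.68 with it. All 4 libraries with 4-OHT lay below all 4 without it. The log2 change was -0.82 ± 0.13 in WT (1.77-fold lower, limma adjusted p = 0.00188) and -0.59 ± 0.13 in KO (1.51-fold lower, limma adjusted p = 0.00712). With 4-OHT both KO clones were above both WT clones, but the difference (log2 0.26 ± 0.13, limma adjusted p = 0.233) and the difference of the responses (log2 0.23 ± 0.19, limma adjusted p = 0.492) missed the threshold. The KO call ended without the untreated library of KO clone 66 (limma adjusted p = 0.0504).

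Because MDM2 rose while MDM4 fell, their ratio of RPKM moved more than either. It was 4.63 and 4.33 in WT clones 15 and 54 without 4-OHT and 23.4 and 19.2 with it. In KO clones 66 and 69 it was 4.00 and 4.93 without 4-OHT and 11.8 and 8.75 with it. The ratio did not separate the genotypes without 4-OHT. With 4-OHT it was higher in all libraries, and both WT values were above both KO values.

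Over the 7 genes, then, 4-OHT called 3 higher (RPF2, RRS1 and MDM2) and 1 lower (MDM4) in WT, where 48.9% of all genes tested were called (24.7% higher, 24.2% lower). The same 4 were called in KO, where 55.7% of all genes were (27.9% higher, 27.8% lower). Changes with 4-OHT were thus common throughout the transcriptome. Between the genotypes with 4-OHT, 1 was called higher (RRS1) and 1 lower (MDM2), beside 6.77% and 7.63% of all genes, 14.4% in all. For the difference of the responses 1 of 7 was called, as higher (RRS1), beside 7.57% of all genes (4.36% higher and 3.22% lower). Groups of 2 clones stand apart easily. In the WT response 5 of the 7 genes had both clones higher with 4-OHT and 1 had both lower, beside 36.1% and 36.7% of all genes. In the KO response the counts were 3 and 4, beside 39.6% and 41.2%. With 4-OHT both KO clones were above both WT clones for 4 genes and below them for 3, beside 30.0% and 31.4%.

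**Figure D4:**
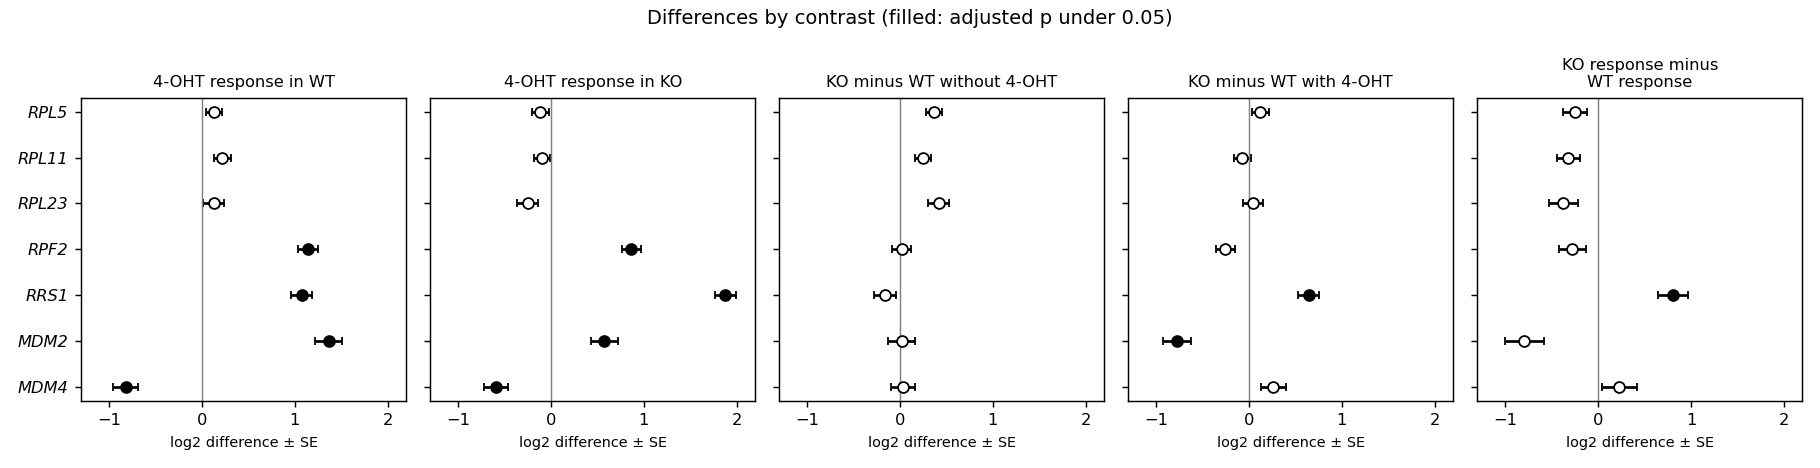
Log2 difference ± SE (x axis) of the 7 genes in 5 contrasts from the limma fit of 8 libraries, with filled points where the adjusted p is under 0.05. RPF2, RRS1 and MDM2 are to the right of 0 and MDM4 to the left in both responses, and RRS1 (0.64) and MDM2 (-0.78) lie on opposite sides in KO minus WT with 4-OHT.

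The p53 target genes give the setting for MDM2. Of 24 other targets, 19 rose and 1 fell with 4-OHT in WT (median log2 0.92), and 19 rose and 2 fell in KO (median 0.86), beside 24.7% higher and 24.2% lower over all genes in WT and 27.9% and 27.8% in KO. Between the genotypes the estimates were lower in KO for 22 of 24 in either condition, with a median log2 of -0.38 without 4-OHT and -0.43 with it. Of these, 7 were called lower and 0 higher without 4-OHT, beside 3.73% and 2.84% of all genes, and 13 lower and 0 higher with it, beside 7.63% and 6.77%. The counts depended on single libraries. Without 4-OHT they were 8 and 2 when WT clone 15 or 54 was left out and 1 and 0 without KO clone 66 or 69. With 4-OHT they were 1 without WT clone 15, 9 without WT clone 54, 7 without KO clone 66 and 1 without KO clone 69. With no filter on low values they were 1 without 4-OHT and 6 with it, and in fits of only the 4 libraries compared 0 without 4-OHT and 9 with it. Without 4-OHT the count was also 1 without the trend and robust moderation.

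CDKN1A, which codes for the cell cycle inhibitor p21, is the classic member of that list. It measured 132 and 162 RPKM in WT clones 15 and 54 without 4-OHT and 716 and 680 with it, and 73.5 and 82.6 and then 329 and 250 RPKM in KO clones 66 and 69. It was 1.88-fold lower in KO already without 4-OHT (limma adjusted p = 0.0204) and 2.43-fold lower with it (limma adjusted p = 0.00529), and its responses differed by log2 -0.38 ± 0.21 (limma adjusted p = 0.318). The call without 4-OHT ended without WT clone 54, KO clone 66 or KO clone 69 (log2 -0.757, -0.822 and -0.991). It was also lost with no filter on low values, without the trend and robust moderation, and in a fit of only the 4 libraries compared (limma adjusted p = 0.0665, 0.0532 and 0.059). The call with 4-OHT held with each library left out. For MDM2 the genotypes overlapped without 4-OHT. BTG2, an antiproliferative gene, was 2.60-fold lower in KO with 4-OHT, the death receptor gene FAS 1.94-fold lower, and RRM2B, a ribonucleotide reductase subunit, 1.76-fold lower (limma adjusted p = 0.00855, 0.0103 and 0.00967). These 3 calls ended without WT clone 15 or KO clone 69 (limma adjusted p = 0.0609 to 0.0793).

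Of the targets, RRM2B followed MDM2 most closely. Over the 8 libraries it was the gene most like MDM2 (Pearson r = 0.992), followed by RBM14-RBM4, DDX6 and FBXO33 (r = 0.990 each). RRM2B measured 11.8 and 12.6 RPKM in WT clones 15 and 54 without 4-OHT and 34.1 and 33.3 with it. It measured 10.98 and 13.0 RPKM in KO clones 66 and 69 without 4-OHT and 21.3 and 17.1 with it. As with MDM2, the genotypes overlapped without 4-OHT and separated with it. For RRM2B the difference of the responses passed the test (log2 -0.79 ± 0.18, limma adjusted p = 0.0422). It did not with clone as a block, with no filter on low values or without the trend and robust moderation (limma adjusted p = 0.0697, 0.123 and 0.0901). Nor did it when any library but that of KO clone 66 with 4-OHT was left out. Over the 8 libraries left out in turn the log2 value was -0.95 to -0.63. MDM4 ran opposite to MDM2 (r = -0.954). RPF2 ran with it (r = 0.925, number 374 of the 8093 genes). These values describe the libraries and carry no test.

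DDB2, a DNA damage recognition factor, had the opposite pattern within the list. It measured 13.7 and 14.1 RPKM in WT clones 15 and 54 without 4-OHT and 7.08 and 5.80 in KO clones 66 and 69, but 21.9, 21.3, 20.4 and 20.0 with 4-OHT. The genotypes were thus apart without 4-OHT (log2 -1.11 ± 0.10, limma adjusted p = 0.00622, and 0.0535 without KO clone 69) and close with it. The difference of its responses was log2 1.02 ± 0.14 (limma adjusted p = 0.00891) and was called with each library left out. For that difference 1 of 24 targets was called higher (DDB2) and 2 lower (RRM2B and TP53INP1), and TP53INP1 lost its call when any of 6 libraries was left out.

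**Figure D5:**
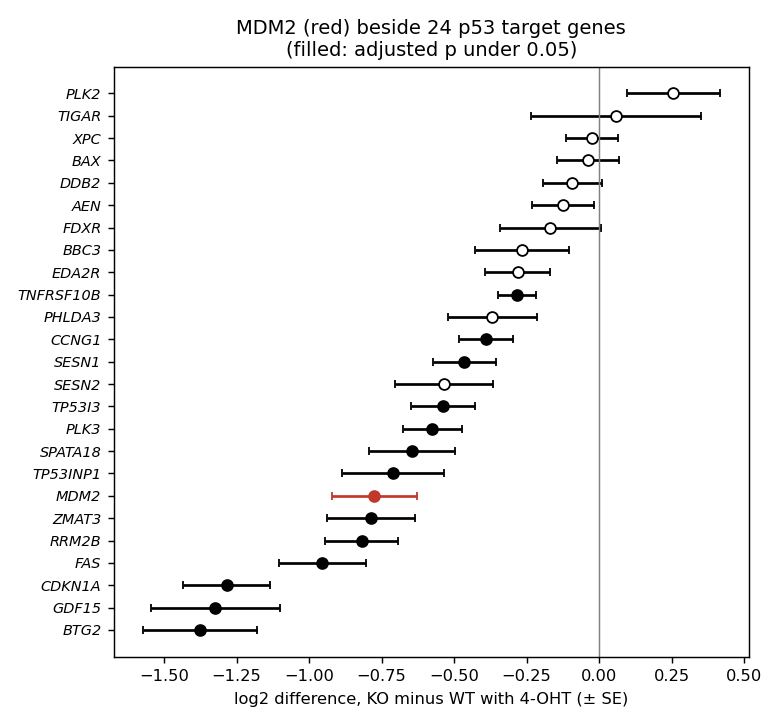
Log2 difference ± SE between KO and WT with 4-OHT (x axis) for 24 p53 target genes and MDM2 (red), in order of the estimate, filled where the limma adjusted p is under 0.05. MDM2 (-0.78) lies among the 13 targets called lower, between TP53INP1 and ZMAT3.

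Genes that modify MDM2 or MDM4 were measured for 16 names, of which 14 were tested. CDKN2A, whose product ARF inhibits MDM2, had 0 reads in all 8 libraries, and USP2 had 0 to 4. Genes overlapping CDKN2A were not examined, so absence of its RNA and loss of its reads in counting cannot be told apart. With 4-OHT in WT 5 rose and 1 fell (median log2 0.19), and in KO 8 rose and 1 fell (median 0.28), beside 24.7% higher and 24.2% lower over all genes in WT and 27.9% and 27.8% in KO. The KO count of 8 fell to 4 without the untreated library of clone 66 and to 5 without either KO library with 4-OHT. The WT count of 5 was 3 without the 4-OHT library of clone 15. USP7, the deubiquitinase that stabilises MDM2, rose in WT (log2 0.45 ± 0.09, limma adjusted p = 0.00438). In KO clones 66 and 69 USP7 was also higher with 4-OHT, at 14.2 and 14.5 RPKM without it and 19.9 and 17.4 with it. USP10, which acts on p53, rose in either genotype (log2 0.93 ± 0.08 and 0.76 ± 0.08, limma adjusted p = 8.76e-05 and 0.000155). RASSF1 fell in either (log2 -1.07 ± 0.10 and -1.10 ± 0.10, limma adjusted p = 0.00014 and 8.3e-05).

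Within that group MTBP, whose product binds MDM2, was the gene that differed by genotype. It measured 1.15 and 1.84 RPKM in WT clones 15 and 54 without 4-OHT and 2.25 and 1.79 with it. KO clones 66 and 69 held 0.67 and 0.57 RPKM without 4-OHT and 3.02 and 3.83 with it. KO was below WT without 4-OHT (2.17-fold, limma adjusted p = 0.0458, and 0.0517 with clone as a block) and above it with 4-OHT, where 0 of the 14 passed (3 higher at an unadjusted p under 0.05, and 1 by limma-voom). The difference of the responses for MTBP was log2 1.85 ± 0.36 (limma adjusted p = 0.0256). The gene had 43 to 278 reads a library. The call without 4-OHT was lost in 6 of 10 other settings (limma adjusted p = 0.0517 to 0.126), with a log2 difference of -1.12 that became -0.61 at a pseudocount of 1. It also ended without WT clone 54 or either KO clone (limma adjusted p = 0.146 to 0.229), and the difference of the responses lost its call when any of 6 of the 8 libraries was left out (limma adjusted p = 0.0578 to 0.105), with a log2 value of at least 1.68.

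Other ribosomal proteins are known to bind MDM2, some of them also in the large-subunit list. Of 15 tested, 5 rose and 0 fell in WT (median log2 0.24), and 5 rose and 4 fell in KO (median 0.16). Over all genes, 24.7% rose and 24.2% fell in WT and 27.9% and 27.8% in KO. The KO counts did not hold: they were 0 and 0 without either library of KO clone 66, 2 and 0 without either library of KO clone 69, 2 and 2 with no filter, and 1 and 0 without the trend and robust moderation. The WT count of higher genes was 8 and 3 without the untreated library of clone 15 or 54, and 2 without the 4-OHT library of clone 54. Without 4-OHT 14 of 15 had a higher estimate in KO, and 2 were called (RPS20 and RPS25, 1.35-fold and 1.40-fold, limma adjusted p = 0.0183 and 0.0432), neither of which remained called without KO clone 66 or 69. RPS27L is itself known as a p53 target. It measured 311 and 303 RPKM in WT clones 15 and 54 without 4-OHT and 491 and 472 with it, against 255 and 279 and then 331 and 270 in KO clones 66 and 69. It rose 1.57-fold in WT (limma adjusted p = 0.00173) and was 1.61-fold lower in KO than in WT with 4-OHT (limma adjusted p = 0.00912), a call that ended without WT clone 15 or KO clone 69 (limma adjusted p = 0.0648 and 0.0613).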

How the data were processed

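The authors deposited 1 table of RPKM for 58870 genes. The tools named per the submitters' processing notes are STAR, featureCounts and edgeR, and the build is GRCh38. Versions and the strand setting are not given in the sources used. Multiplied by GENCODE 29 transcript lengths and 1 total a library, 100.0% of values above 0 came out as whole reads within 0.1 read. For 6676 genes, RPF2, RRS1 and MDM2 among them, the length was inferred from steps between values. At these totals 1 read in 1 kb is worth 0.0401 to 0.0453 RPKM. The recovered reads served for TMM factors (0.9536 to 1.0292), the filter and limma-voom as an alternative test. The 45 duplicate rows of pseudoautosomal Y copies were left out.

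Genes with at least 10 reads at the median library size (CPM 0.425) in 2 libraries and 15 in all were kept (16542). The test was limma 3.58.1 (R 4.3.3) on log2(RPKM + 0.1), in 1 model of 4 group means with 4 residual degrees of freedom. The variances were moderated robustly along an intensity trend. Tests are two-sided, Benjamini-Hochberg adjusted over 16542 genes, with 0.05 as threshold. Fold changes are on the log2(value + 0.1) scale, which understates those of low genes. Levels are TMM-scaled RPKM. The fit was tested on simulated data with independent libraries and no differences between clones. That test cannot show how the calls fare with real clones.

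The same clone was sampled without and with 4-OHT, so clone numbers pair libraries. Deviations from group means correlated at 0.309 for WT and 0.005 for KO clones. The unblocked fit is the main one, with clone as a block an alternative.

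The 7 genes and all lists were chosen with earlier results of these data known. All 7 are given in every contrast, with the values not stated above as follows. The difference of the responses was log2 -0.245 ± 0.127 for RPL5 and -0.373 ± 0.158 for RPL23 (limma adjusted p = 0.279 and 0.194). KO minus WT without 4-OHT was log2 0.02 for RPF2, -0.163 for RRS1 and 0.033 for MDM4 (limma adjusted p = 0.927, 0.424 and 0.907). From each list at most 4 genes a contrast with the smallest p are named, and CDKN1A. RPL genes have many pseudogene copies among which reads may be split: rows named as pseudogenes of RPL5 held 2.80% to 5.56% as many reads as RPL5, and those of RPL23 0.491% to 0.71%. Genes overlapping the 7 held at most 1.89% as many reads as the member (the carboxypeptidase gene CPM on the minus strand beside MDM2), and without a stated strand setting such reads cannot be told apart. Some genes are not reported here.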

Additional observations from a re-analysis of the deposited data

Results flagged for a closer look

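For 5 of the 120 genes tested among the 7 and the lists (4.17%) the 4-OHT response itself differed between the genotypes, by limma's test of the KO response minus the WT response. Over all genes tested the share was 7.57%. RRS1 rose more in KO (log2 0.80, adjusted p = 0.0307), with KO above WT in both clones with 4-OHT. MTBP rose in KO with a difference of 1.85 (adjusted p = 0.0256). DDB2 had a difference of 1.02 (adjusted p = 0.00891), from a lower level in KO without 4-OHT. RRM2B rose less in KO (log2 -0.79, adjusted p = 0.0422). TP53INP1 had a difference of -1.05 (adjusted p = 0.0484), with 3.57 ± 0.68 RPKM in WT and 2.13 ± 0.20 in KO with 4-OHT (SD, n = 2). Only the DDB2 call held with each of the 8 libraries left out in turn. RRS1, MTBP and TP53INP1 lost it in 6 cases each and RRM2B in 7.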

How the results depend on the processing

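The 7 genes kept direction and side of the threshold in 471 of 511 alternatives, lost a call in 19, gained one in 13 and changed sign in 8. The other genes named did so in 1434 of 1609, with 154 calls lost, 20 gained and 1 sign changed, and counts stayed within 1.5 times in 105 of 146. The cause of the changes was not tested. Without 4-OHT, 1087 genes were called, but 255 with no filter, 1777 by limma-voom, 523 with no trend or robust moderation, 75 in a fit of only the 4 libraries compared, and 5 (without KO clone 69) to 1879 (without WT clone 15) with a library left out. Of the 7 genes, 0 were called there, 2 by limma-voom and 0 to 3 with a library left out. With 4-OHT the 2382 genes became 1020 with no filter, 1519 with no trend and 210 (without KO clone 69) to 1369 (without WT clone 54) with a library left out, and the 2 of 7 became 0 with no filter and 0 to 1. For the difference of the responses the 1253 genes became 454 with no filter, 670 with no trend and 324 (without the 4-OHT library of KO clone 69) to 2154 (without the untreated library of WT clone 15), and the 1 of 7 became 0 with no filter, 0 with no trend, 2 by limma-voom and 0 to 3. Of the 7 genes, 4 were called in either 4-OHT response, 4 to 7 in WT and 2 to 4 in KO with a library left out.

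Among the results run, signs turned only for estimates that were not called. With the library total in place of TMM, KO minus WT without 4-OHT was -0.004 for RPF2 and -0.005 for MDM2. Leaving out a library, it was -0.083 to 0.123 for RPF2, -0.337 to 0.011 for RRS1, -0.089 to 0.127 for MDM2, -0.007 to 0.073 for MDM4 and -0.249 to 0.543 for SNORA21, and the WT response of RPL23 was -0.047 to 0.298. With clone as a replicate block, 8240 genes were called in the WT response, 9309 in the KO response, 1088 and 2425 between genotypes without and with 4-OHT, and 1385 for the difference of the responses. The block changed no call of the 7 genes. It ended those of RPL6 in the KO response (adjusted p = 0.0608), MTBP without 4-OHT (0.0517) and RRM2B in the difference of the responses (0.0697), and in the latter it gained CHEK2 (0.0485) and RPL39L (0.0254). Scaling by the library total alone moved the share of higher calls by under 10 percentage points. Depth limits the lowest genes: at the 43 reads of MTBP in KO clone 69 without 4-OHT counting error is large. It is larger still at the 4 to 13 reads of SNORA21B and the 15 of SNORA21 in WT clone 15 without 4-OHT.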

Other observations

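SNORA21, an H/ACA snoRNA encoded in an intron of RPL23, was read in every library. It had 15 and 25 reads in WT clones 15 and 54 without 4-OHT and 58 and 80 with it, and 20 and 25 and then 165 and 135 in KO clones 66 and 69. It was 3.42-fold higher with 4-OHT in WT (limma adjusted p = 0.00227) and 6.94-fold in KO (limma adjusted p = 0.000193), while RPL23 had log2 differences of 0.13 ± 0.11 and -0.25 ± 0.11 that missed the threshold (limma adjusted p = 0.389 and 0.0962). With 4-OHT it was 2.25-fold higher in KO than in WT (limma adjusted p = 0.042, and 0.121 to 0.207 without WT clone 15 or either KO clone), and the difference of the responses was log2 1.02 (limma adjusted p = 0.186). SNORA21B, in the same gene, had 7 and 6 reads in WT clones 15 and 54 without 4-OHT and 13 and 7 with it. KO clones 66 and 69 had 6 and 4 reads without 4-OHT and 12 and 12 with it. SNORA21B was 2.48-fold higher with 4-OHT in KO (limma adjusted p = 0.00442), a call that rests on these few reads. Its WT response (log2 0.51) was not called. The exons of RPL23 and these rows overlap in the annotation, and the snoRNA rows held at most 0.975% as many reads as RPL23. The 17 rows named for 5S rRNA genes had 0 reads in all 8 libraries, so the RNA of the particle itself was not measured here.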
